A study of Mus musculus with 610 samples.

Results

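Ccr9 and Gpr183 encode receptors that steer lymphoid cells through tissue, and were read here in single cells of the mouse thymus. They were 2 of the 48 assays of a quantitative PCR panel, chosen by name, and their values were taken in all 610 cells of the series. Ccr9 was detected in 237 of these cells, Gpr183 in 276 and both in 111. CCR9 is the receptor of the chemokine CCL25, which is made in the thymus and the small intestine, and it is known for the homing of progenitors to the thymus and of lymphocytes, gamma delta T cells among them, to the gut. GPR183, also called EBI2, is a receptor for oxysterols and is known for placing B cells, dendritic cells and innate lymphoid cells within lymphoid tissue. Both are G protein-coupled receptors at the cell surface. The assays read their transcripts, not the proteins.

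The study sorted 4 populations to describe progenitors of gamma delta T cells that make IL-17 (Tgd17 cells). All 4 sorts took live thymus cells that were CD44+ and negative for lineage markers and for the T cell receptor delta chain. The B6 DN2 sort was CD25+ and cKit+, used C57BL/6J animals aged 7 to 10 days, and is a single run of 78 cells. The Tcrd-/- DN1d sort was CD25-, CD24+ and cKit-, used animals of the strain B6.129P2-Tcrd tm1Mom at the same ages, and is a single run of 86 cells. The Rag1-/- cKit- sort was CD25- and cKit- with no CD24 gate named, used animals of the strain B6.129S7-Rag1 tm1Mom aged 0 to 2 days, and has runs of 89, 52 and 82 cells. The B6 DN1d sort used the gate of the Tcrd-/- DN1d cells on C57BL/6J animals aged 7 to 10 days, and has runs of 72, 70 and 81 cells. The Rag1-/- cells therefore differ from B6 DN1d cells in genotype, age and gate, which cannot be told apart.

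A run is a set of cells whose titles share a token, and the runs were used as replicates. The labels do not say which animals gave which run, so the tests see run-to-run spread, which can be technical. No run holds cells of more than 1 group, so for B6 DN2 and Tcrd-/- DN1d run and group cannot be told apart, and the spread of these groups was taken from those with 3 runs. Each reaction gave a threshold cycle (Ct), the PCR cycle at which its signal crossed a threshold. A reaction at 24 was taken as not detected, and level below is 24 minus Ct in cycles, so that an undetected reaction is 0. A cell had on average 28.5 assays detected in the B6 DN2 run, 30.9 in the Tcrd-/- run, 21.6 to 24.3 in the Rag1-/- runs and 19.2 to 20.3 in the B6 DN1d runs. Gapdh, a housekeeping gene, was detected in all 610 cells at a mean level of 14.18 to 15.64 per run. Shares of cells carry exact (Clopper-Pearson) 95% intervals, which cover counting error only.

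The 250 bases before the RefSeq start of each gene (build GRCm38.p6, the gene's own strand, 5′ to 3′) are shown because E proteins, whose genes are in the panel, bind the E-box CANNTG. Capitals mark the E-boxes.
Ccr9, chr9:123766961-123767210, plus strand: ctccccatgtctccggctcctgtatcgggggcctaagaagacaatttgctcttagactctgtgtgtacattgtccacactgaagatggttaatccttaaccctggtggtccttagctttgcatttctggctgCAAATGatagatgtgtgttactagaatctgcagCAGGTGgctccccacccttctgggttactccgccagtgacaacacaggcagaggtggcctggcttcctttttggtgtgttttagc
Gpr183, chr14:121965194-121965443, minus strand: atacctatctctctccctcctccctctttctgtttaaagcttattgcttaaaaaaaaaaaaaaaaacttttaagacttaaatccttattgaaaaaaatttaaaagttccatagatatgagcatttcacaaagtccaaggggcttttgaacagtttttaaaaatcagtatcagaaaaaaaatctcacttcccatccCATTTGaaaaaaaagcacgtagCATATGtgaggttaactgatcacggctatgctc
Each window held 2 E-boxes, CAAATG and CAGGTG at Ccr9 and CATTTG and CATATG at Gpr183. Of 32851 promoter windows of the same length, 66.2% held at least 1 and 31.8% at least 2, so that 2 is a common count. A match to the RUNX motif TGNGGT lay in the Gpr183 window and none in the Ccr9 window, against 40.1% of all windows. The TCF/LEF motif CTTTGA and the GATA motif GATAA, in 13.8% and 22.6% of all windows, matched in neither. Both strands were searched and no matches overlapped. The windows differed in base composition, with 50.4% G and C at Ccr9 and 32% at Gpr183. A match is a run of letters and says nothing of binding.

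Ccr9 was detected in 1 B6 DN2 cell, in most Tcrd-/- DN1d cells, in a share of Rag1-/- cells that varied widely by run, and in somewhat under 50% of B6 DN1d cells. In the B6 DN2 run it was detected in 1 of 78 cells, 1.28% (0.0325% to 6.94%). The Tcrd-/- run had it in 75 of 86 cells, 87.2% (78.3% to 93.4%). In Rag1-/- runs 1, 2 and 3 it was detected in 28 of 89, 3 of 52 and 37 of 82 cells, or 31.5%, 5.77% and 45.1%, a mean of 27.5% ± 20.0 (SD, n = 3 runs). The 3 B6 DN1d runs gave 36 of 72, 31 of 70 and 26 of 81 cells, or 50%, 44.3% and 32.1%, a mean of 42.1% ± 9.14 (SD, n = 3 runs). Rag1-/- run 2 stood far below Rag1-/- runs 1 and 3, while the Tcrd-/- and B6 DN2 runs lay outside the range of the Rag1-/- and B6 DN1d runs. The Tcrd-/- and B6 DN2 runs lay outside that range for the assays Il17re and Lef1 as well. The interval of Rag1-/- run 2, 1.21% to 15.9%, did not reach those of Rag1-/- run 1 (22% to 42.2%) and run 3 (34.1% to 56.5%).

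Differences in detection were fitted with limma on the logit of the share in each run, over 47 assays and adjusted by Benjamini-Hochberg. Against B6 DN1d, Ccr9 was detected less often in B6 DN2 cells, by -3.62 ± 0.67 (SE) on the logit scale (limma, adjusted p = 6.27e-05), where 21.3% of the assays were called lower. It was detected more often in Tcrd-/- cells, by 2.20 ± 0.67 (limma, adjusted p = 0.00854), where 55.3% of the assays were called higher, so that a call in that direction was the usual one. The number of other assays detected moved with this difference. Cells with Ccr9 held 31 other assays in the Tcrd-/- run and 23.2 in the B6 DN1d runs, against 23.1 and 16.5 in cells without it. With that number as a covariate the difference was -0.34 (limma, adjusted p = 0.771). Without Rag1-/- run 1, which enters through the pooled spread, the difference of 2.20 no longer passed (limma, adjusted p = 0.0927).

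Between Rag1-/- and B6 DN1d cells the difference in Ccr9 detection was -0.88 ± 0.48 and did not pass (limma, adjusted p = 0.116, 95% interval -1.88 to 0.11), where 25.5% of the assays were called lower. A difference of nearly 2 in the logit is therefore not excluded by these runs. This value depended on single runs. It was -0.16 without Rag1-/- run 2 (adjusted p = 0.661), -1.39 without Rag1-/- run 3 (adjusted p = 0.00628) and -1.09 without B6 DN1d run 3 (limma, adjusted p = 0.00948). In the fits without Rag1-/- run 3 and without B6 DN1d run 3, limma used a common spread for all assays. The SE was then 0.46 and 0.39, so these passes do not rest on the spread of Ccr9 itself. The difference was -1.99 (limma, adjusted p = 0.00103) with the number of other assays as a covariate. The Tcrd-/- cells held Ccr9 more often than B6 DN2 cells, by 5.83 (adjusted p = 5.34e-06, with 31.9% of assays higher), and Rag1-/- cells did so by 2.74 (limma, adjusted p = 0.00141, with 17% of assays higher). Without Rag1-/- run 1 this last difference was 2.52 and did not pass (limma, adjusted p = 0.0776). The Rag1-/- cells held it less often than Tcrd-/- cells, by -3.09 (limma, adjusted p = 0.000532, with 42.6% of assays lower). The order of Ccr9 shares was thus Tcrd-/- DN1d, B6 DN1d, Rag1-/- cKit- and B6 DN2, with B6 DN1d and Rag1-/- the neighbours not told apart by the fit.

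**Figure D1:**
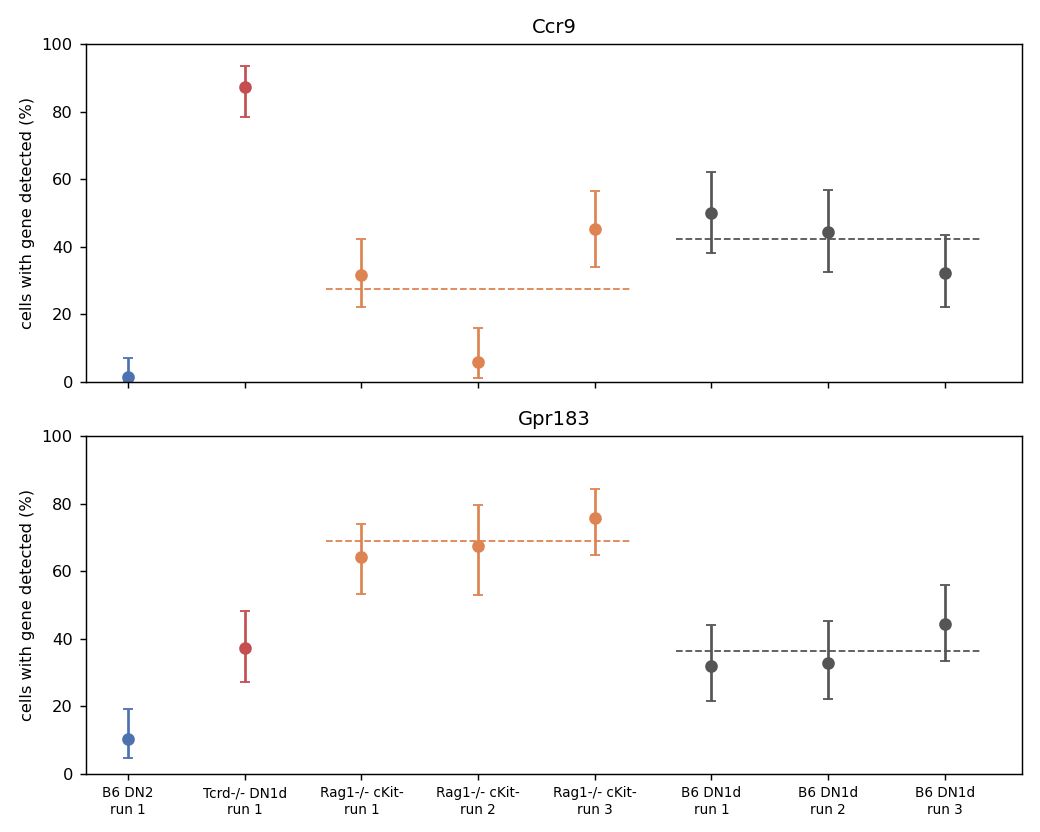
Share of cells with Ccr9 (top) and Gpr183 (bottom) detected in each of the 8 runs, in percent. Points are runs, bars are exact 95% intervals over cells and dashed lines are means of the groups with 3 runs. Ccr9 is at 87.2% in the Tcrd-/- run and Gpr183 at 64% to 75.6% in the 3 Rag1-/- runs, above the 31.9% to 44.4% of the B6 DN1d runs.

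Gpr183 was detected in most Rag1-/- cells, in about a like share of Tcrd-/- and B6 DN1d cells, and in few B6 DN2 cells. In the B6 DN2 run it was detected in 8 of 78 cells, 10.3% (4.53% to 19.2%). The Tcrd-/- run gave 32 of 86 cells, 37.2% (27% to 48.3%). Rag1-/- runs 1, 2 and 3 gave 57 of 89, 35 of 52 and 62 of 82 cells, or 64%, 67.3% and 75.6%, a mean of 69% ± 5.96 (SD, n = 3 runs). B6 DN1d runs 1, 2 and 3 gave 23 of 72, 23 of 70 and 36 of 81 cells, or 31.9%, 32.9% and 44.4%, a mean of 36.4% ± 6.97 (SD, n = 3 runs). All 3 Rag1-/- runs lay above all other runs, the B6 DN2 run lay below all other runs, and the Tcrd-/- run fell among the B6 DN1d runs. The place of the Rag1-/- runs was not particular to Gpr183. The assays Bhlhe40, Cd163l1, Id2 and Nfil3 also had all 3 Rag1-/- runs above all other runs. In Rag1-/- run 2, where Ccr9 was in 5.77% of cells, Gpr183 was detected about as often as in the other two Rag1-/- runs.

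Against B6 DN1d, Gpr183 was detected less often in B6 DN2 cells, by -1.56 ± 0.49 on the logit scale (limma, adjusted p = 0.00707), and more often in Rag1-/- cells, by 1.35 ± 0.34 (adjusted p = 0.00183), where 34% of the assays were called higher. The difference in Tcrd-/- cells was 0.04 ± 0.49 (limma, adjusted p = 0.957, 95% interval -0.98 to 1.05). Its sign turned with single runs left out, as it did with other choices. The Gpr183 share was higher in Tcrd-/- than in B6 DN2 cells by 1.60 (adjusted p = 0.0232) and in Rag1-/- than in B6 DN2 cells by 2.91 (limma, adjusted p = 1.94e-05). It was also higher in Rag1-/- than in Tcrd-/- cells, by 1.31 (limma, adjusted p = 0.0248), where 14.9% of the assays were higher and Ccr9 was lower. Without Rag1-/- run 3, where limma used a common spread for all assays, that last difference was 1.16 and did not pass (limma, adjusted p = 0.0924). The order of Gpr183 shares was Rag1-/- cKit-, Tcrd-/- DN1d, B6 DN1d and B6 DN2, with Tcrd-/- and B6 DN1d not told apart.

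The plot of all assays sets both genes among the others. Of the 2 receptors, both were lower in B6 DN2 than in B6 DN1d cells, and 1 each was higher in Tcrd-/- (Ccr9) and in Rag1-/- cells (Gpr183). Over all 47 assays, 21.3% were called lower in B6 DN2, 55.3% higher in Tcrd-/- and 34% higher in Rag1-/- cells. A call of 1 receptor as higher was thus common for the panel. The 3 contrasts share the B6 DN1d runs. The median difference over the 47 assays was 0.99 in B6 DN2, 1.34 in Tcrd-/- and 0.41 in Rag1-/- cells against B6 DN1d, so both receptors stood on the other side of 0 from the median in B6 DN2, and Ccr9 alone did so in Rag1-/- cells.

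**Figure D2:**
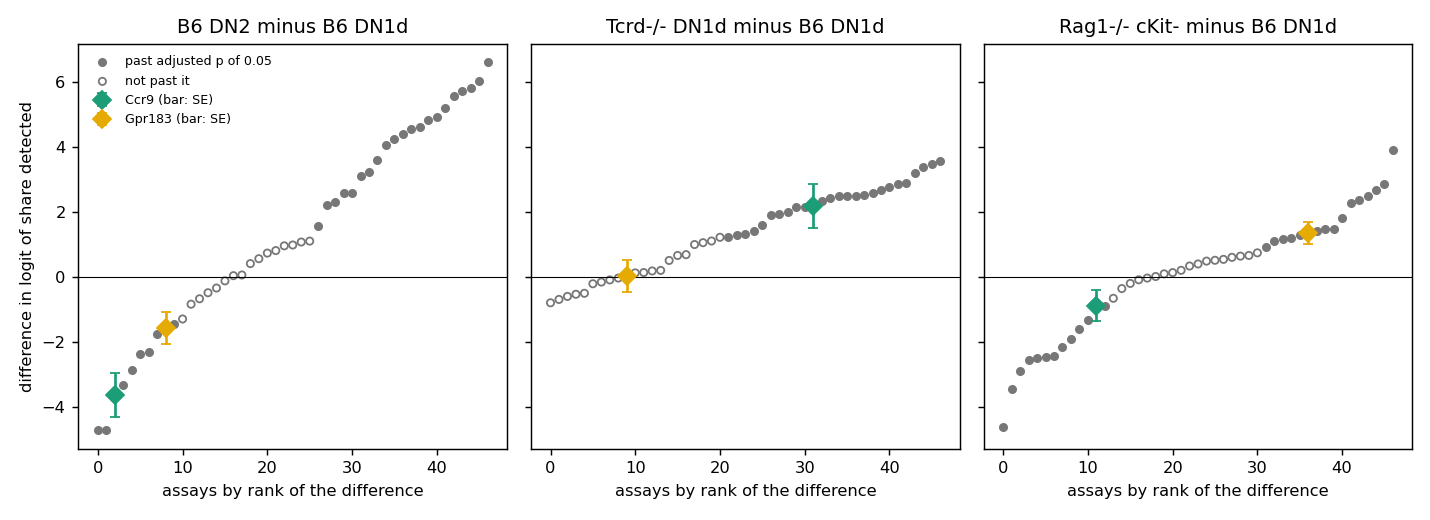
Difference from B6 DN1d in the logit of the share of cells detected, for the 47 assays of the panel detected in any cell, ordered by size within each contrast. Filled grey points passed an adjusted p of 0.05, open points did not, and diamonds mark Ccr9 and Gpr183 with their SE. Ccr9 lies at -3.62 in B6 DN2, 2.20 in Tcrd-/- and -0.88 in Rag1-/- cells, Gpr183 at -1.56, 0.04 and 1.35, of which Ccr9 in Rag1-/- and Gpr183 in Tcrd-/- did not pass.

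Averaged over all cells of a run, undetected cells counted as 0, the levels gave the same order. The mean Ccr9 level was 0.10 in the B6 DN2 run, 10.09 in the Tcrd-/- run, 2.97, 0.54 and 4.36 in Rag1-/- runs 1 to 3 and 4.55, 3.41 and 3.12 in B6 DN1d runs 1 to 3. It was higher in Tcrd-/- than in B6 DN1d cells by 6.4 ± 1.53 cycles (SE; limma, adjusted p = 0.0185, with 61.7% of assays higher). In B6 DN2 the level difference of -3.59 ± 1.53 did not pass (adjusted p = 0.0958), nor did that of -1.07 ± 1.08 in Rag1-/- cells (limma, adjusted p = 0.401). The B6 DN2 difference passed without Rag1-/- run 2 (adjusted p = 0.0331) and with the runs of the 2 groups alone (limma, adjusted p = 0.0406), and was -0.17 by medians over cells (limma, adjusted p = 0.842). The Tcrd-/- call ended without B6 DN1d run 2 (6.26 cycles, limma, adjusted p = 0.0533). In Tcrd-/- cells the Ccr9 level was 9.99 cycles above that in B6 DN2 cells (limma, adjusted p = 0.00817, with 29.8% of assays higher). In Rag1-/- cells it was lower than in Tcrd-/- cells, by -7.47 cycles (limma, adjusted p = 0.0119, with 40.4% of assays lower), a call that ended with the runs of the 2 groups alone (limma, adjusted p = 0.0717). It was 2.52 cycles above B6 DN2 without passing (limma, adjusted p = 0.228), and without Rag1-/- run 2 it was 3.56 cycles above and passed (limma, adjusted p = 0.0329).

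The mean Gpr183 level was 0.73 in the B6 DN2 run, 3.24 in the Tcrd-/- run, 6.39, 6.27 and 7.11 in Rag1-/- runs 1 to 3 and 2.56, 2.46 and 3.98 in B6 DN1d runs 1 to 3. It was higher in Rag1-/- than in B6 DN1d cells by 3.59 ± 0.51 cycles (limma, adjusted p = 0.00335, with 34% of assays higher). It was lower in B6 DN2 cells by -2.28 ± 0.72 cycles (limma, adjusted p = 0.0494, with 17% of assays lower), a call at the threshold that ended in 5 of the 6 fits with a run left out. In Tcrd-/- cells it differed by 0.23 ± 0.72 (limma, adjusted p = 0.811). The Rag1-/- cells were also above B6 DN2 cells, by 5.86 cycles (limma, adjusted p = 0.00186, with 21.3% of assays higher), and above Tcrd-/- cells, by 3.35 cycles (limma, adjusted p = 0.0138, with 14.9% of assays higher). The Tcrd-/- level was 2.51 cycles above that of B6 DN2 and did not pass (limma, adjusted p = 0.0663), but passed without B6 DN1d run 3 (adjusted p = 0.0163).

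Among cells with the gene detected, Ccr9 was at its highest level in the Tcrd-/- run. The 1 B6 DN2 cell stood at 7.83, and the 75 Tcrd-/- cells ran from 8.40 to 13.19 with a mean of 11.57. The means of Rag1-/- runs 1 to 3 were 9.43, 9.36 and 9.65, and those of B6 DN1d runs 1 to 3 were 9.09, 7.69 and 9.72. Rag1-/- run 2 differed from the other two Rag1-/- runs in how many cells had Ccr9 and had a like mean level in its 3 detected cells. With B6 DN2 left out, a choice made after seeing the data, the level in detected cells was 2.73 ± 0.88 cycles higher in Tcrd-/- than in B6 DN1d cells (limma over 36 assays, adjusted p = 0.0591, with 5.56% of assays higher) and did not pass. Without B6 DN1d run 3 it was 3.18 and passed (limma, adjusted p = 0.00307). In Rag1-/- cells it differed from B6 DN1d by 0.65 ± 0.63 (limma, adjusted p = 0.486, with 11.1% of assays higher).

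The level of Gpr183 in detected cells was 7.07 in the B6 DN2 run, 8.70 in the Tcrd-/- run, 9.98, 9.31 and 9.41 in Rag1-/- runs 1 to 3 and 8.01, 7.5 and 8.96 in B6 DN1d runs 1 to 3. All 3 Rag1-/- means lay above the 3 B6 DN1d means. A higher level in Rag1-/- cells was the usual direction, with 24 of 33 assays above 0, a median of 0.61 and 9.09% called higher. The Gpr183 difference of 1.41 ± 0.58 cycles did not pass (limma over 33 assays, adjusted p = 0.141), and without B6 DN1d run 3 it was 1.81 and passed (limma, adjusted p = 0.0183). With the Gapdh level of each cell subtracted it was 0.80 and did not pass (limma, adjusted p = 0.423). Against B6 DN2 the Rag1-/- cells were 2.49 ± 0.82 cycles higher (limma, adjusted p = 0.0455, with 9.09% of assays higher), a call that rests on 8 B6 DN2 cells and ended without Rag1-/- runs 1, 2 or 3 or B6 DN1d run 1. The differences in B6 DN2 and Tcrd-/- cells against B6 DN1d were -1.08 ± 0.82 (adjusted p = 0.348) and 0.54 ± 0.82 (limma, adjusted p = 0.634, with 6.06% of assays higher).

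**Figure D3:**
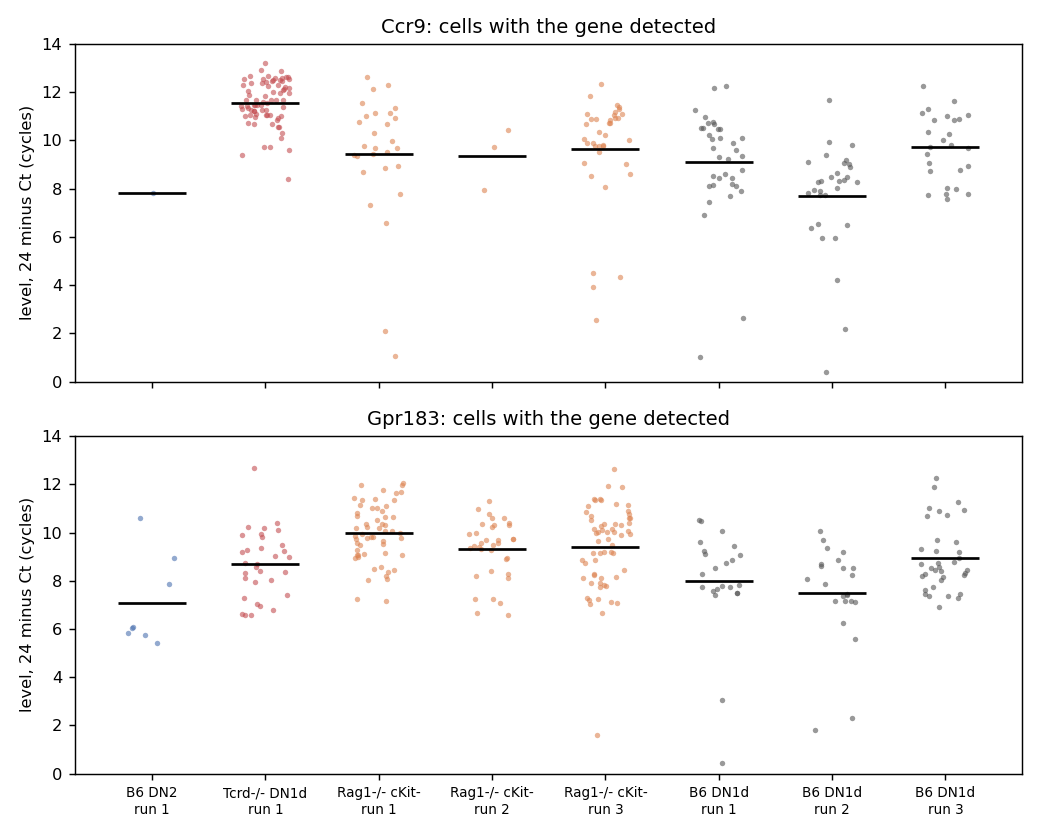
Level, 24 minus Ct in cycles, of Ccr9 (top) and Gpr183 (bottom) in the cells with the gene detected, by run. Each point is a cell and each line the mean of the run. The Tcrd-/- cells have a mean Ccr9 level of 11.57, above the run means of 7.69 to 9.72 in the Rag1-/- and B6 DN1d runs.

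In Rag1-/- cells the 2 receptors tended to be detected in the same cells. In B6 DN1d runs 1 and 2 they tended to be detected in different cells, and B6 DN1d run 3 showed little of either. In the Tcrd-/- run Gpr183 was less frequent in cells with Ccr9, yet most cells with Gpr183 also had Ccr9. In Rag1-/- runs 1, 2 and 3, Gpr183 was detected in 92.9%, 100% and 94.6% of cells with Ccr9, against 50.8%, 65.3% and 60.0% of cells without it. Counted over the 3 runs, 64 of the 68 Rag1-/- cells with Ccr9 also had Gpr183. In B6 DN1d runs 1, 2 and 3 the shares ran the other way, with Gpr183 in 19.4%, 16.1% and 42.3% of cells with Ccr9 and in 44.4%, 46.2% and 45.5% of cells without it. In the Tcrd-/- run Gpr183 was detected in 32% of cells with Ccr9 and in 72.7% of the 11 cells without it. Of the Tcrd-/- cells with Gpr183, 75% also had Ccr9. Both were in 27.9% of Tcrd-/- cells, against 32.45% if the 2 were independent. In the B6 DN2 run no cell had both, with 1 cell having Ccr9, and the link cannot be read there.

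As a natural log odds ratio of co-detection, which is above 0 where 2 genes share cells, the values were 2.33, 1.33 and 2.26 in Rag1-/- runs 1 to 3 and, for B6 DN1d runs 1 to 3, -1.15, -1.42 and -0.12. The groups did not overlap, and B6 DN1d run 3 was close to 0. The value of Rag1-/- run 2 rests on 3 cells with Ccr9, all of which also had Gpr183. Such a gap was not particular to this pair. The values of Ccr9 with Cd163l1, Gzma, Notch1 and Syk did not overlap either, and there the Rag1-/- runs were lower. For Ccr9 with Gpr183 the mean was 1.97 ± 0.56 in the Rag1-/- runs and -0.90 ± 0.69 in the B6 DN1d runs (SD, n = 3 runs each). The difference was 2.87, with an exact two-sided permutation p of 0.1, the smallest that 3 runs against 3 allow. The Tcrd-/- run gave -1.63. Within 3 classes of cells by number of other assays detected (Mantel-Haenszel), the values were -2.14 in Tcrd-/-, 1.86 in Rag1-/- and -0.88 in B6 DN1d cells. The share of cells with both receptors was 25.9% ± 18.7 in Rag1-/- and 10.1% ± 3.24 in B6 DN1d cells (SD, n = 3 runs each; exact permutation p = 0.4).

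**Figure D4:**
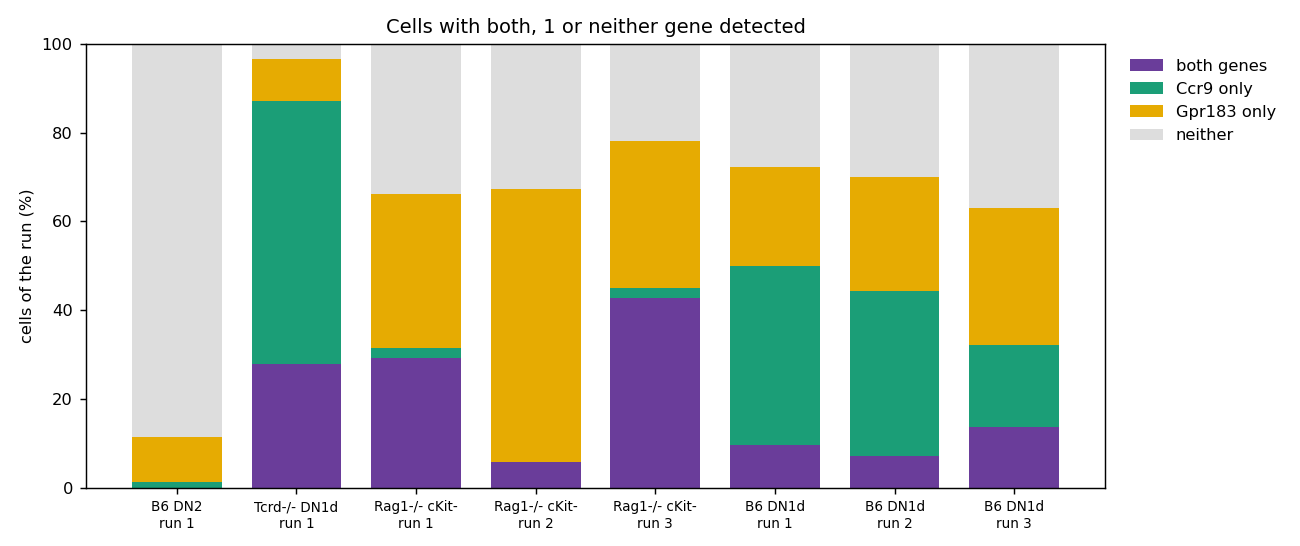
Share of the cells of each run with both receptors, 1 of them or neither detected, in percent. Cells with Ccr9 and no Gpr183 make up 59.3% of the Tcrd-/- run, at most 2.44% of the Rag1-/- runs and 18.5% to 40.3% of the B6 DN1d runs.

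Levels within the overlap did not all go one way. In Rag1-/- runs 1 and 3 the Ccr9 level averaged 9.74 and 9.81 in cells with both receptors and 5.40 and 6.86 in the 4 cells with Ccr9 alone. In B6 DN1d runs 1 to 3 it averaged 10.30, 8.84 and 9.98 in cells with both and 8.80, 7.47 and 9.53 in cells with Ccr9 alone. Gpr183 in Rag1-/- runs 1 to 3 averaged 10.34, 10.74 and 9.75 in cells with both and 9.68, 9.17 and 8.97 in cells with Gpr183 alone. These run means were all higher in cells with both. The Tcrd-/- run went the other way, with Ccr9 at 11.48 in cells with both and 11.61 alone, and Gpr183 at 8.57 and 9.06. Gpr183 in B6 DN1d runs 1 to 3 was mixed, at 7.75, 8.18 and 8.12 in cells with both and 8.12, 7.31 and 9.33 alone. Over cells with both, Pearson's r of the 2 levels was 0.24 in 24 Tcrd-/- cells, 0.27 in 64 Rag1-/- cells and -0.38 in 23 B6 DN1d cells, a description over cells that share a run.

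Assays of the Tgd17 list were among the highest partners of Ccr9 in all 3 cKit- populations, beside assays outside the list such as Tox in Tcrd-/- cells. In B6 DN1d cells the reported partners with the highest log odds ratios were Sox13, a transcription factor known for Tgd17 development (3.03 ± 0.87, SD over 3 runs), and Blk, a Src family kinase (2.82 ± 1.13). Sox13 was detected in 79.3% of cells with Ccr9 and 15.4% of cells without it. The lowest were Gp49a, a receptor of myeloid and mast cells (-2.55 ± 1.08, 2.15% against 26%), and Cdh1, which encodes E-cadherin (-2.27 ± 1.16). The median over 40 assays was 0.92, so that most assays went with Ccr9 to some degree. Of 10 assays of the Tgd17 list in range, 9 were above 0 in every run, with a median of 2.44, and Il7r, the interleukin 7 receptor, was the exception at -0.50 ± 0.74, named after its value was seen. Of all 40 assays, 22 were above 0 in every run.

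The reported partners of Ccr9 in Rag1-/- cells were Il17re, an IL-17 receptor subunit (2.95 ± 0.90, 81.5% against 16.6%), and Sox13 (2.87 ± 0.17, 32.6% against 1.97%). Syk, a kinase of antigen receptor signalling (-2.31 ± 0.49, 6.89% against 56.4%), and Gzma, a granzyme of cytotoxic cells (-1.54 ± 0.94), went against it. The median over 30 assays was 0.42, and 9 of 10 Tgd17 assays had a mean above 0, 7 of them in every run. Of all 30 assays, 19 had a mean above 0, 14 of them in every run. The highest reported values of the Tcrd-/- run were those of Tox, an HMG box factor (5.53, 100% against 36.4%), and Blk (4.79, 98.7% against 27.3%). The lowest there were Gp49a (-5.90, 0% against 72.7%) and Cdh1 (-5.53). These Tcrd-/- values rest on 11 cells without Ccr9, and the median over 33 assays was 1.46. Of the 6 Tgd17 assays in range there, 5 were above 0, with a median of 3.21, where 23 of all 33 assays were above 0.

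The receptors were also crossed with Sox13 in B6 DN1d cells and with Zbtb16 in Rag1-/- cells, both factors chosen by name. In B6 DN1d runs 1 to 3 Ccr9 was in 86.1%, 71% and 80.8% of cells with Sox13 and in 13.9%, 23.1% and 9.09% of cells without it. Gpr183 was in 25.0%, 12.9% and 46.2% of cells with Sox13 and in 38.9%, 48.7% and 43.6% of cells without it, so that run 3 had no such gap. In Rag1-/- runs 1 to 3, cells with Zbtb16, which encodes the innate-like lymphocyte factor PLZF, had Ccr9 in 44.1%, 8.33% and 62.5% of cases and Gpr183 in 76.3%, 75% and 85.7%. Rag1-/- cells without Zbtb16 had Ccr9 in 6.67%, 3.57% and 7.69% and Gpr183 in 40%, 60.7% and 53.8%. Both receptors were more frequent with Zbtb16 in every Rag1-/- run, though in run 2 Ccr9 was in 3 cells in all.

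The highest partners of Gpr183 in Rag1-/- cells differed from those in B6 DN1d and Tcrd-/- DN1d cells. Bhlhe40 and Gp49a were among the highest in both DN1d populations. In B6 DN1d cells the highest were Bhlhe40, a transcriptional repressor (1.33 ± 0.14, 33.3% of cells with Gpr183 against 11.4% without), Gp49a (1.24 ± 0.86) and Csf2rb2, a beta subunit of the mouse interleukin 3 receptor (1.21 ± 0.95). The rearranged junction Vd4-Jd1 (-1.56 ± 0.63, 1.45% against 10.6%) and Il17re (-1.01 ± 0.84) were lowest, and the median of 40 assays was -0.15. Of the 10 Tgd17 assays, 7 were below 0 in every run and 1, Il7r, above 0 in every run (0.80 ± 0.23), with a median of -0.72. Of all 40 assays, 12 were below 0 in every run and 9 above 0 in every run. In Rag1-/- cells the same list gave 9 of 10 assays above 0, 6 of them in every run, with a median of 1.35 against 0.32 over 30 assays. Of those 30 assays, 21 were above 0, 11 of them in every run.

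The reported partners of Gpr183 in Rag1-/- cells were Ccr9 itself (1.97 ± 0.56, 36.9% against 5.42%) and Il7r (1.70 ± 1.32). Those with the lowest values were E2f2, a cell cycle factor (-1.19 ± 1.19), and Gzma (-1.11 ± 1.30), both with an SD as large as the mean. In the Tcrd-/- run Gp49a (1.64, 18.8% against 3.70%), Cdh1 (1.44) and Bhlhe40 (1.28) were highest, and Ccr9 (-1.63) and Gzma (-1.60) lowest. In the 8 B6 DN2 cells with Gpr183 the highest values were Etv5 (1.74), Blk (1.68) and Spi1 (1.56), and the lowest Dna2 (-2.24) and Bhlhe40 (-1.44), each resting on a few cells.

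**Figure D5:**
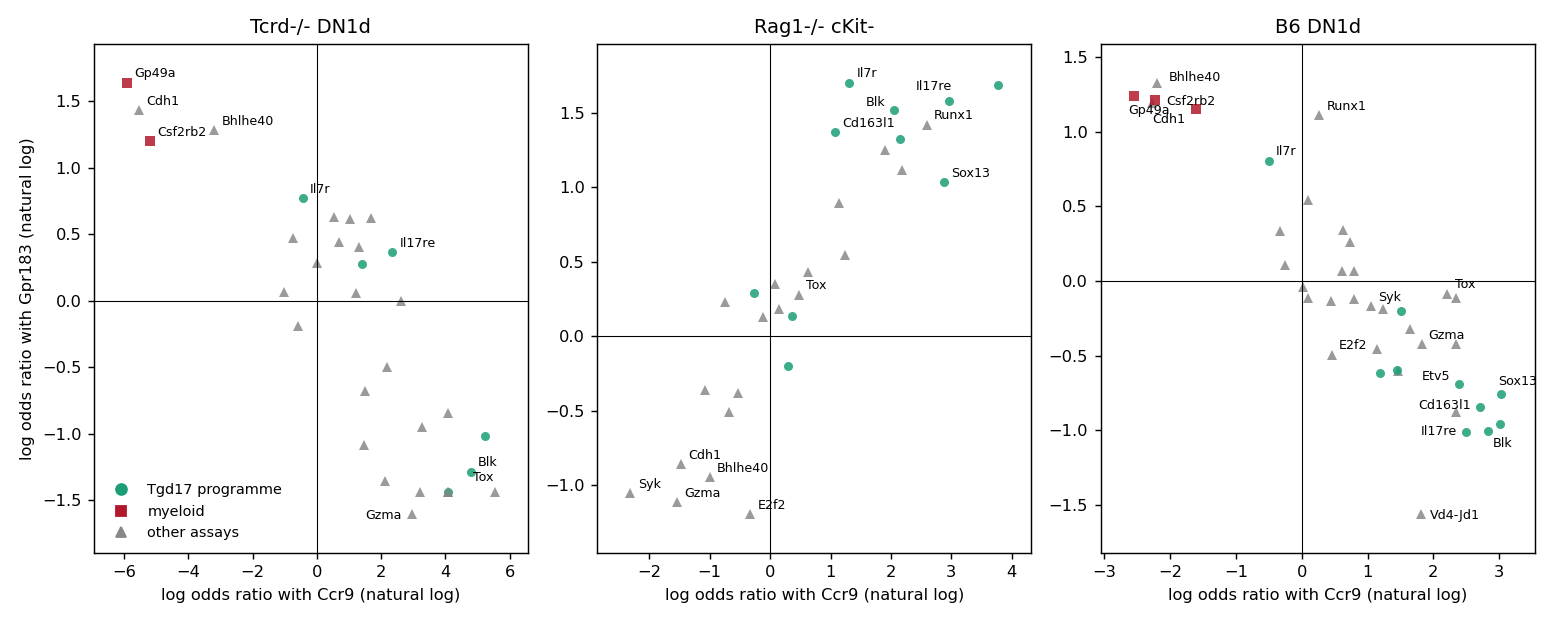
Natural log odds ratio of each assay with Ccr9 (horizontal) and with Gpr183 (vertical) in the Tcrd-/-, Rag1-/- and B6 DN1d cells, for assays detected in 5% to 95% of the cells of the group, with runs averaged. The axes differ between panels and some points carry no name. In B6 DN1d cells Sox13 lies at 3.03 with Ccr9 and -0.76 with Gpr183, while in Rag1-/- cells it lies at 2.87 and 1.03.

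Markers of myeloid cells went with Gpr183 within the Tcrd-/- run and B6 DN1d runs 1 and 2, but not within B6 DN1d run 3. Between groups they did not follow Gpr183, since the B6 DN2 run had the most cells with such a marker and the lowest Gpr183 share. The list held Spi1, Csf1r, Csf2rb2 and Gp49a, and at least 1 was detected in 80.8% of B6 DN2 cells, 9.30% of Tcrd-/- cells, 0% to 2.44% of cells of the Rag1-/- runs and 12.5% to 28.4% of cells of the B6 DN1d runs. Their summed level averaged 6.80 cycles in the B6 DN2 run, 2.00 in the Tcrd-/- run, 0 to 0.42 in the Rag1-/- runs and 2.24 to 5.35 in the B6 DN1d runs. In B6 DN2 this was nearly all Spi1, which encodes PU.1 and is also used by early T cell progenitors, whereas Csf1r was detected in 2 B6 DN2 cells and in no cell of the other groups. In B6 DN1d runs 1, 2 and 3, Gpr183 was detected in 66.7%, 58.3% and 43.5% of the 9, 12 and 23 cells with a myeloid marker. In the cells with none it was detected in 27%, 27.6% and 44.8%. Ccr9 was in 11.1%, 16.7% and 0% of the marked cells and in 55.6%, 50% and 44.8% of the others. In the Tcrd-/- run the 8 marked cells had Gpr183 in 75% and Ccr9 in 0%, and the others had Gpr183 in 33.3% and Ccr9 in 96.2%. All 8 B6 DN2 cells with Gpr183 were among the 63 with Spi1.

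With all cells that had a myeloid marker left out, a choice made after seeing the data, the signs were kept. The log odds ratio of Ccr9 with Gpr183 was -1.25 in the Tcrd-/- run, 2.33, 1.33 and 2.27 in Rag1-/- runs 1 to 3 and -0.77, -1.40 and -0.18 in B6 DN1d runs 1 to 3. Gpr183 was detected more often in Rag1-/- than in B6 DN1d cells by 1.5 (limma, adjusted p = 0.00158), and Ccr9 less often by -1.20, which then passed (limma, adjusted p = 0.0438). The B6 DN2 run kept 15 cells, and the higher Ccr9 detection in Rag1-/- than in B6 DN2 cells, then 1.07, no longer passed (limma, adjusted p = 0.194).

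Cells grouped by receptor also differed in how much of the Tgd17 list they held. Tcrd-/- cells with both receptors, Ccr9 alone, Gpr183 alone and neither held 10.1, 9.45, 6.25 and 5.00 of the 11 assays. These classes held 24, 51, 8 and 3 cells, so the last 2 values rest on few cells. Rag1-/- cells with both, Gpr183 alone and neither held 8.20 ± 0.41, 5.71 ± 0.17 and 4.88 ± 0.48 (SD, n = 3 runs), and the 4 Rag1-/- cells with Ccr9 alone held 5.00 in run 1 and 8.50 in run 3. B6 DN1d cells held 8.11 ± 0.77 with both, 7.58 ± 0.41 with Ccr9 alone, 3.42 ± 0.12 with Gpr183 alone and 4.37 ± 0.88 with neither (SD, n = 3 runs). Cells with both receptors held more of the list than those with Gpr183 alone or neither in the Tcrd-/-, Rag1-/- and B6 DN1d means. Cells with Ccr9 alone did so in Tcrd-/- and B6 DN1d cells, and in Rag1-/- cells they were too few and too spread to place. The number of other assays moved with this. In Tcrd-/- cells the other assays numbered 31.4 with both, 30.4 with Ccr9 alone, 23.1 with Gpr183 alone and 20.3 with neither. Rag1-/- cells had 24.1 with both, 22.2 with Gpr183 alone and 20.7 with neither. In B6 DN1d cells the other assays numbered 23.9 with both, 22.7 with Ccr9 alone, 16.3 with Gpr183 alone and 15.9 with neither. Whether the list differed beyond this number was not tested.

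E proteins are basic helix-loop-helix factors that bind E-boxes, Id proteins hold them inactive, and Notch1 signals in early T cells. The panel held 5 assays of this list, Tcf3 E12, Tcf3 E47, Tcf12, Id2 and Notch1. Against B6 DN1d, 4 of 5 were detected more often in B6 DN2 cells, 3 in Tcrd-/- cells and 4 in Rag1-/- cells, and none less often. The tests were those of limma over 47 assays, of which 44.7%, 55.3% and 34% were called higher in those contrasts. Tcf3 E47 was in 100% of B6 DN2 cells, 80.2% of Tcrd-/- cells, 58.6% ± 9.32 of Rag1-/- cells and 31.3% ± 3.08 of B6 DN1d cells (SD, n = 3 runs). Id2 was in 78.2%, 70.9%, 99.6% ± 0.649 and 65.7% ± 12.9 of cells in the same order of groups. In B6 DN1d cells 4 of the 5 had a mean log odds ratio above 0 with Ccr9, and 2 of 5 with Gpr183, with medians of 0.79 and -0.11 against 0.92 and -0.15 over all assays. Of all 40 assays, 31 were above 0 with Ccr9 and 14 with Gpr183. Within classes of other assays detected, 2 of 5 of the list were above 0 with Ccr9, against 26 of 40. In B6 DN1d cells the medians of the list thus lay close to those of the panel. In the Tcrd-/- run they were 1.46 against 1.46 with Ccr9, but -1.08 against 0 with Gpr183.

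Over the 8 runs, which fall into the 4 groups, the assay whose share was most like that of Ccr9 was Lef1, a T cell HMG box factor (Pearson's r of logit shares 0.95), followed among those reported by Blk (0.83), with Csf1r the least like (-0.82). Lef1 was in 7.69% of B6 DN2 cells, 91.9% of Tcrd-/- cells, 30.3%, 15.4% and 41.5% of cells of Rag1-/- runs 1 to 3 and 47.2%, 47.1% and 50.6% of cells of B6 DN1d runs 1 to 3. Like Ccr9, Lef1 was lowest among the Rag1-/- runs in run 2, the Rag1-/- run with the fewest assays detected per cell. This was not particular to Lef1, since Blk, Maf and Tox were lowest there too, while Bhlhe40 was highest there. The most like Gpr183 were Cd163l1, a scavenger receptor of gamma delta T cells (0.89), Id2 (0.77) and Nfil3, a factor of innate lymphoid cells (0.63), and the least like was Cpa3, a mast cell and progenitor protease (-0.95). Cd163l1 was in 1.28% of B6 DN2 cells, 58.1% of Tcrd-/- cells, 77.5%, 84.6% and 73.2% of cells of Rag1-/- runs 1 to 3 and 33.3%, 31.4% and 13.6% of cells of B6 DN1d runs 1 to 3. It was low where Gpr183 was low and highest in the Rag1-/- runs, but in B6 DN1d run 3 it was at its lowest of the B6 DN1d runs while Gpr183 was at its highest. Within B6 DN1d cells Cd163l1 went with Ccr9 (2.70 ± 0.39) and not with Gpr183 (-0.85 ± 0.13), so that likeness over runs and sharing of cells differed. The correlations describe 8 points that share groups and carry no test.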

How the data were processed

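The authors deposited 1 table of threshold cycles (Ct, not normalised) for 48 assays and 610 single cells, with Ct ending at 24. Per the labels' protocols, cells were captured and lysed on a Fluidigm C1, preamplified for 18 cycles with pooled primers and read in 30 cycles of quantitative PCR with EvaGreen dye. The sources used here do not give how Ct was called or who set the ceiling. Of 29280 reactions, 50.5% stood at 24, and no 2 cells held identical values. Precision is set by the 52 to 89 cells and the single run or 3 runs of each group.

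Level was computed as 24 minus Ct. Each run gave the empirical logit of the share detected (0.5 added to each side), the mean level, and the mean level in detected cells for assays with at least 3 such cells in every run. These were fitted in limma 3.58.1 (R 4.3.3), 8 runs with a mean per group, two-sided, Benjamini-Hochberg within each contrast over 47 assays (33 for detected cells), threshold 0.05. Co-detection was a natural log odds ratio per run, 0.5 added to each count. It was planned as a description with no test, and the exact permutation tests of run values were added to that plan. The limma fits and the log odds ratios were run on simulated data first, and Python 3.11.15 with scipy 1.17.1 and statsmodels 0.14.6 did the rest.

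The 2 genes and the lists were chosen with earlier results of these data known. Partners were named by rule, the 3 highest and 2 lowest mean log odds ratios per gene and group among assays in 5% to 95% of its cells, and for likeness over runs the 3 highest and 1 lowest r. One more assay met this rule; it is left unreported but stays in the counts. Partners of Ccr9 in B6 DN2 rest on 1 cell and were left out. Of the assay names, 41 were RefSeq symbols, 2 synonyms and 5 neither. Of 16 listed homing genes 2 were in the panel, and of 4 B cell genes 0. The alternatives were runs left out, a ceiling of 22, cells with at least 10 assays, the number of other assays as a covariate, medians, levels minus Gapdh and fits of 2 groups alone.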

Additional observations from a re-analysis of the deposited data

How the results depend on the processing

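No paired analysis was possible because run numbers follow accession order and pair nothing. The lower detection of both receptors in B6 DN2 cells and the higher detection of Gpr183 in Rag1-/- cells, each against B6 DN1d, kept direction and call in every setting run. The other 3 detection differences from B6 DN1d did not. For Ccr9 in Tcrd-/- against B6 DN1d the difference of 2.20 was 1.99 to 2.36 with a run left out and -0.344 with the number of other assays as a covariate. For Ccr9 in Rag1-/- against B6 DN1d, -0.88 was -1.39 to -0.159 with a run left out, -1.99 with that covariate and -1.20 in cells with no myeloid assay. For Gpr183 in Tcrd-/- against B6 DN1d, 0.04 was -0.0549 to 0.207 with a run left out, -0.00417 in cells with at least 10 assays and -0.139 with the covariate. The level of Gpr183 there was -0.0345 to 0.725 with a run left out, and in detected cells minus Gapdh -0.135. The cause of these shifts was not tested. With the covariate, 9 in place of 26 assays were called higher in Tcrd-/- cells, and assays with a lower level in B6 DN2 numbered 0 to 4 in 10 settings, against 8. Assays with a level difference in Rag1-/- cells numbered 8 higher and 0 lower by medians over cells, against 16 and 10, and 6 lower without Rag1-/- run 2. In detected cells, where fewer assays are tested, 3, 2 and 3 were higher in B6 DN2, Tcrd-/- and Rag1-/- cells against 19, 29 and 16, and 1, 0 and 0 lower. Bhlhe40 with Gpr183 in B6 DN1d was 1.18 by Mantel-Haenszel. The sign of co-detection held in every setting run in the Tcrd-/-, Rag1-/- and B6 DN1d cells, and cannot be read in B6 DN2. In the Tcrd-/- run it rests on few cells without Ccr9, and on fewer still with myeloid-marked cells left out.

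Shares of 1 run rest on 78 or 86 cells, and 3 runs against 3 cannot give an exact p under 0.1. Fewer cells with a transcript and less transcript in a cell are not told apart near the detection limit.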

Other observations

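Ccr9 and Sox13 were detected in equal numbers of cells in each B6 DN1d run, 36, 31 and 26 cells in runs 1, 2 and 3, and yet not in the same cells. Both were detected in 31, 22 and 21 cells, Ccr9 without Sox13 in 5, 9 and 5, and Sox13 without Ccr9 in 5, 9 and 5. The counts differed elsewhere. In the B6 DN2 run Ccr9 was in 1 cell and Sox13 in 69. In the Tcrd-/- run they were in 75 and 83 cells, with Ccr9 never found without Sox13. In Rag1-/- runs 1, 2 and 3 Ccr9 was in 28, 3 and 37 cells and Sox13 in 10, 2 and 13, with both in 9, 1 and 12. Most Ccr9-detected Rag1-/- cells thus had no detected Sox13.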
